A study of Mus musculus with 8 samples.

Results

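The genes described here are 40 mitosis and G2/M genes, whose products bring cells from G2 into mitosis, build and police the spindle, and separate the daughter cells. They were taken by symbol from a fixed list and matched to Ensembl gene identifiers, and all 40 were found among the 55536 gene rows of the count tables and among the 11189 genes that were tested. The cells were CD8+ T cells with the OT-1 transgenic receptor, which is specific for the chicken ovalbumin peptide SIINFEKL. Per the study's methods, they came from lymph nodes of C57BL/6 mice on a Rag-1KO background, so that no other T cell receptor is rearranged. In all libraries the cells were activated with 100 nM SIINFEKL for 2 days and then expanded for 2 days in 20 ng/mL recombinant human IL-2. GC7 was present at 10 µM during the IL-2 culture in the 4 GC7 libraries, and the 4 Mock libraries received an equal volume of the acetic acid vehicle. DHPS, the enzyme that starts the hypusination of the translation factor eIF5a, uses spermidine as its substrate. GC7 derives from spermidine and inhibits DHPS by competition. The study treats GC7 as a drug with effects beyond eIF5a, so differences between the groups are differences between cultures with and without the drug.

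Entry into mitosis is driven by CDK1 bound to cyclin A or cyclin B. CDC25 phosphatases switch this kinase on, WEE1 holds it back, and the anaphase-promoting complex ends its activity by marking cyclin B and securin for destruction once the spindle checkpoint is satisfied. Activated CD8+ T cells divide rapidly, and the mRNAs of most of these genes are made mainly in G2 and mitosis, under the MuvB, B-Myb and FOXM1 proteins, and are repressed in resting cells by the related DREAM complex. The level of such an mRNA in bulk RNA therefore depends both on how many cells are in G2 or mitosis and on the amount in each, and these cannot be told apart here. From Hoechst staining, the study reports that cells treated with GC7 built up in S phase. It gives no phase shares for these libraries, and the part of the cell cycle phases in the mRNA levels was not tested.

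Total counts were between 17528776 and 25284730 per library, and the lowest count of any of the 40 genes in any library was 466. Values are scaled CPM, that is counts divided by the library total and its TMM factor so that libraries are comparable, and changes are log2 fold changes of GC7 against Mock from edgeR's quasi-likelihood fit, with standard errors (SE) from n = 4 libraries a group. A gene is said to have risen or fallen where its Benjamini-Hochberg adjusted p over all genes tested was under 0.05. All 10 CD8 T cell markers examined passed the filter, with a summed level of 9566 to 10923 CPM in Mock and 6859 to 8589 CPM in GC7. Most of that difference lay in Gzmb (means of 4438 and 2907 CPM) and Thy1 (1634 and 1132 CPM), and Cd2, Cd3d, Cd3e and Cd3g also fell (by 0.61, 0.27, 0.23 and 0.37), so that 6 of the 10 fell. Cd8a rose by 0.48 and Cd5 by 0.35. Markers of other cells were low: 6 B cell genes summed to 7.02 to 10.1 CPM in Mock and 4.63 to 5.93 CPM in GC7, with Ms4a1, Pax5 and Blnk at 0 counts in every library. Most of the B cell sum was Cd79b (means of 7.49 CPM in Mock and 4.42 CPM in GC7), which fell by 0.76 (edgeR adjusted p = 0.00101). For 10 myeloid and dendritic genes the sums were 98.2 to 122 and 72.5 to 96.8 CPM, mostly from Cst3, and for 6 stromal and erythroid genes 52.6 to 57.3 and 30.7 to 33.1 CPM, mostly from Pecam1. For the 5 matched NK, CD4 and gamma delta T cell genes they were 18.2 to 20.3 and 17.2 to 20.0 CPM, mostly from Trdc. Csf1r and Adgre1 stayed at or near 0 counts. The part of these other cells in the results was not tested.

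Most of the 40 mRNAs changed little between Mock and GC7. Of the 40 genes, 9 fell and 5 rose, whereas 29.0% of all genes tested fell and 30.4% rose. In either direction, 14 of the 40 (35.0%) passed the test, against 59.5% of all genes tested. Scaling by library totals, which raises the median change of all genes from 0.02 to 0.11, gave 6 lower and 11 higher. The genes that fell included Cdc25b, Ccnb2, Mki67, Plk1 and Aurkb, and those that rose were Mad2l1, Hmmr, Nuf2, Kif20a and Kif20b. The changes were small. The log2 fold changes ran from -0.60 to 0.43, with a median of -0.04 against 0.02 for all genes tested. With library totals the median of the 40 genes turned to 0.056, against 0.11 for all genes tested. The median size of a change, whatever its sign, was 0.098 on the log2 scale (1.07-fold) against 0.293 (1.23-fold) for all genes tested. All genes tested were not matched to the 40 genes by level, and the comparison depends on the filter. Without a filter the median size was 0.552 for all genes and 0.098 for the 40. Only 2 of the 40 (5.0%), Cdc25b and Ccnb2, moved by more than 0.5 on the log2 scale, against 28.3% of all genes tested. At the stricter threshold that the study used, an adjusted p under 0.01 with more than a 2-fold change, edgeR called 0 of the 40 genes, as did DESeq2 and limma-voom, while 5.31% of all genes tested were lower and 3.17% higher. At an unadjusted p under 0.05 and any fold, 16 of the 40 genes passed, against 7121 of the 11189 genes tested.

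**Figure D1:**
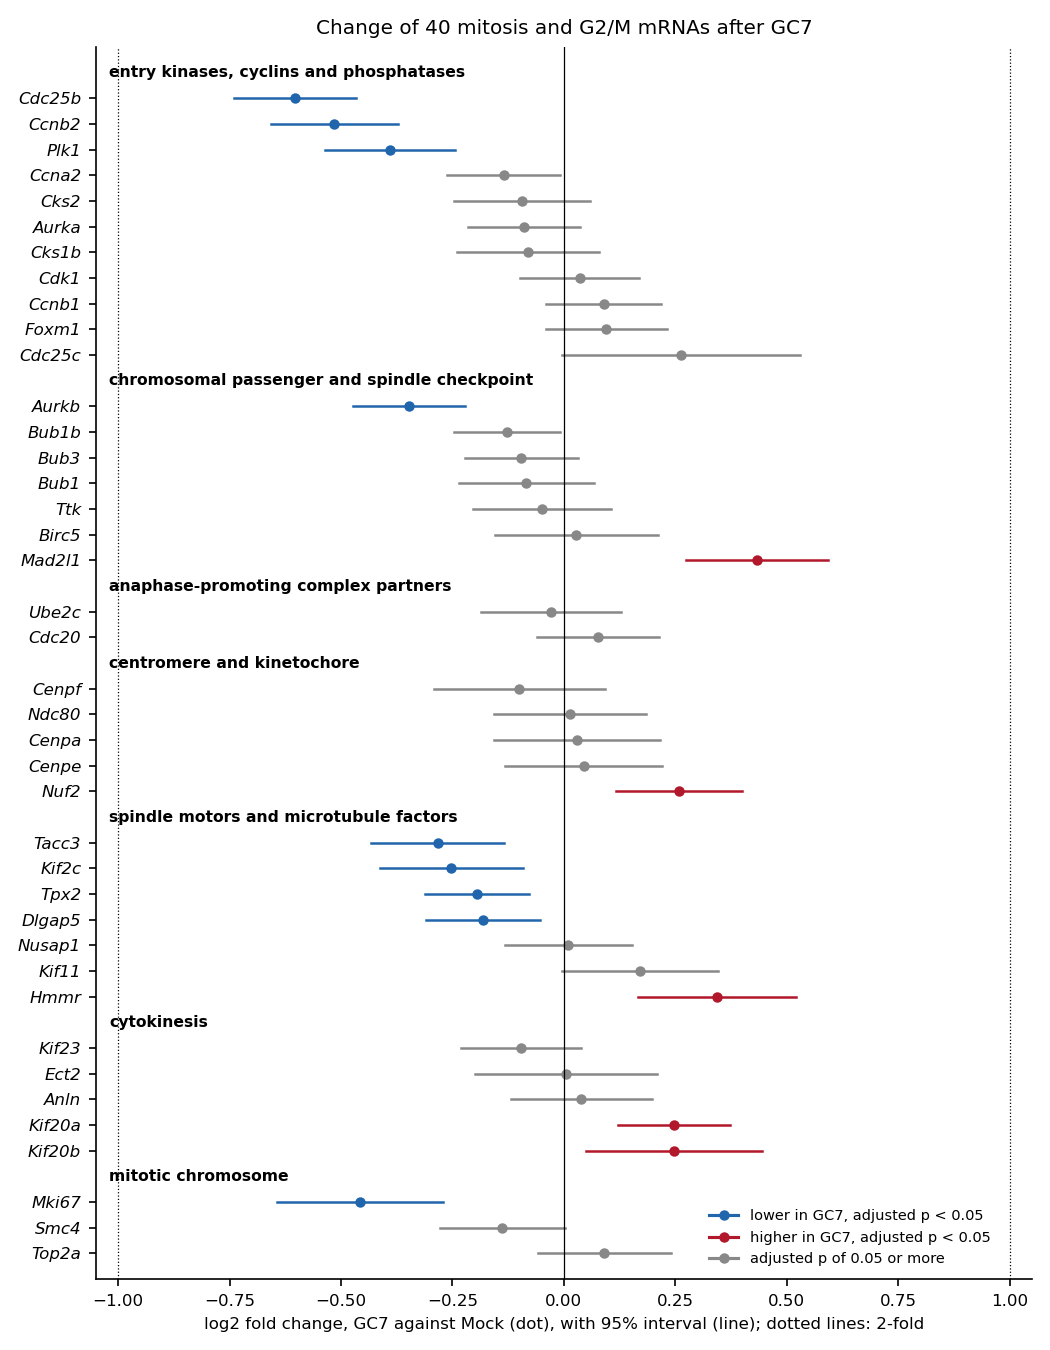
Log2 fold change of GC7 against Mock (x axis) for each of the 40 genes, grouped by role, with the 95% interval of the edgeR fit as a line and dotted lines at a 2-fold change. All 40 estimates lie between -0.60 and 0.43, 9 are lower and 5 are higher past an adjusted p of 0.05.

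The groups were also compared library by library. Every GC7 library was below every Mock library for 11 of the 40 genes and above every Mock library for 5. The same held for 27.5% and 28.1% of all genes tested, or 55.6% in either direction. The 11 genes are the 9 that fell, with Ccna2 and Bub1b, and the 5 are those that rose. For the other 24 genes the groups overlapped. Of the 26 genes that did not pass the test, 24 had a 95% interval of change within 20% in either direction. The exceptions were Cdc25c and Kif11, whose intervals reached increases of 44.3% and 27.0%.

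**Figure D2:**
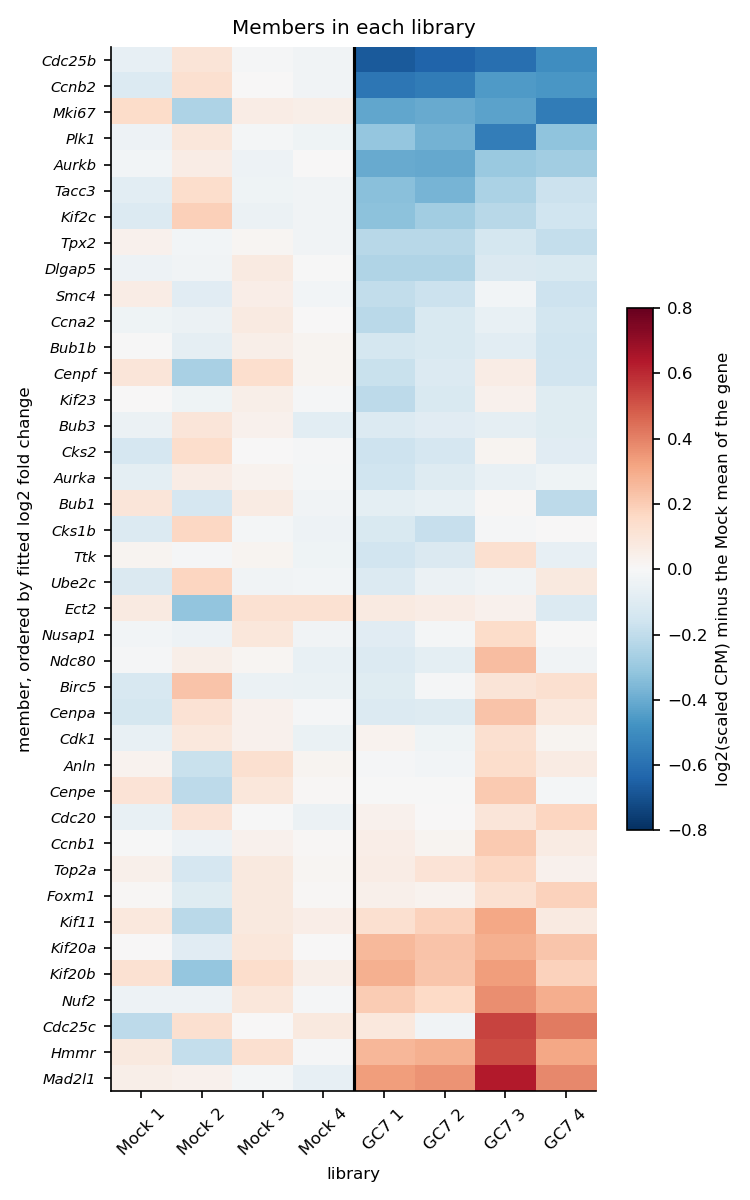
Log2 scaled CPM of each gene in each of the 8 libraries, as a difference from the mean of the gene's 4 Mock values (colour), with genes ordered from the lowest to the highest fitted change. The top and bottom rows separate the GC7 columns from the Mock columns, while the middle rows do not. Single libraries stand out in some middle rows, such as Mock 2 for Ect2 (64.5 CPM, against 84.4 to 87.4 CPM in the other Mock libraries).

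Many promoters of this kind of gene carry a cell cycle genes homology region (CHR), with the letters TTTGAA or TTCGAA, which MuvB complexes bind, and CCAAT boxes, which NF-Y binds. Both were searched on both strands in windows from 250 bases before to 50 bases after each RefSeq start (build GRCm38.p6), and windows were found for 32 of the 40 genes. Windows were not used for Aurkb, Ccna2, Cdc25c, Dlgap5, Foxm1, Kif20a, Smc4 and Tpx2. A CHR was present in 24 of the 32 genes, a CCAAT box in 23, at least 2 CCAAT boxes in 17, and both elements in 20. By window, 76.5% of the 34 windows of these genes held a CHR, against 14.2% of the 10627 windows of genes tested and 19.2% of all 32851 windows. For CCAAT the shares were 73.5%, 38.2% and 37.4%, and for both elements together 64.7%, 6.02% and 7.52%. Only 1 pair of matches overlapped, a CCAAT box on either strand of the Ube2c window.

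The elements were found among genes that fell, genes that rose and genes that did not pass. A CHR was present in 5 of the 6 genes that fell and had a window, in 2 of the 4 that rose, and in 17 of the 22 that did not pass. A CCAAT box was present in 4, 1 and 18 of these genes. The windows of 6 genes are printed below, 5′ to 3′ on the strand of the gene, because they belong to the cyclin B pair, of which Ccnb2 fell and Ccnb1 did not pass, to the other genes with the largest falls that had a window (Cdc25b and Mki67) and to those with the largest rises (Mad2l1 and Hmmr). Capitals mark a CHR or a CCAAT box in either orientation, so that TTCAAA and ATTGG are matches on the other strand. The windows lie at chr9:70421505-70421804 (minus strand) for Ccnb2, chr13:100786437-100786736 (minus) for Ccnb1, chr2:131186698-131186997 (plus) for Cdc25b, chr7:135716330-135716629 (minus) for Mki67, chr6:66534971-66535270 (plus) for Mad2l1 and chr11:40733388-40733687 (minus) for Hmmr.
Ccnb2: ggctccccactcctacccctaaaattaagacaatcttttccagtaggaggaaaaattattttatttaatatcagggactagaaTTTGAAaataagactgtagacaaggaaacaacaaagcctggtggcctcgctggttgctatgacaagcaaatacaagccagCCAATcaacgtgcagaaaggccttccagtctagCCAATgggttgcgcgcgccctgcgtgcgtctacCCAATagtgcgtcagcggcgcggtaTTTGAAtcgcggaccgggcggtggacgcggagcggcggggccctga
Ccnb1: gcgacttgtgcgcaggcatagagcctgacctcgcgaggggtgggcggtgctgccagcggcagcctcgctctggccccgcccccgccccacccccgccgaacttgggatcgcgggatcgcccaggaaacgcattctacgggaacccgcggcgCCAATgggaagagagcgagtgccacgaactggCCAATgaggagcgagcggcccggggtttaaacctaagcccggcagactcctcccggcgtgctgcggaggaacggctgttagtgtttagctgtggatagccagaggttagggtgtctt
Cdc25b: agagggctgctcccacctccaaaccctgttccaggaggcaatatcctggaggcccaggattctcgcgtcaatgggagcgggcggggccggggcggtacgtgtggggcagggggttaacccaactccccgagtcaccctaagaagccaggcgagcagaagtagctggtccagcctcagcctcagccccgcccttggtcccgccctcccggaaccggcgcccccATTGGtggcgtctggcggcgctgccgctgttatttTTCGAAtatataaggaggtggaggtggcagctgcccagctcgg
Mki67: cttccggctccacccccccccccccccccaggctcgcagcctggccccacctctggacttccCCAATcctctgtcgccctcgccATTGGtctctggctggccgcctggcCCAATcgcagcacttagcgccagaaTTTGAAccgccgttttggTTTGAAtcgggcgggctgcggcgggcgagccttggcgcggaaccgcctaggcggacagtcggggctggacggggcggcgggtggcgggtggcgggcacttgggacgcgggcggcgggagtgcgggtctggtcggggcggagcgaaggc
Mad2l1: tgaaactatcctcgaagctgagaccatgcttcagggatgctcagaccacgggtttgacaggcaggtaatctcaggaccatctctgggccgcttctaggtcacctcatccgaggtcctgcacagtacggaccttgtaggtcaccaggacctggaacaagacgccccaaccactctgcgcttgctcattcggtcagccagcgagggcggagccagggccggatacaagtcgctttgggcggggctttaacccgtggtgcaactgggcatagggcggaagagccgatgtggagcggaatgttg
Hmmr: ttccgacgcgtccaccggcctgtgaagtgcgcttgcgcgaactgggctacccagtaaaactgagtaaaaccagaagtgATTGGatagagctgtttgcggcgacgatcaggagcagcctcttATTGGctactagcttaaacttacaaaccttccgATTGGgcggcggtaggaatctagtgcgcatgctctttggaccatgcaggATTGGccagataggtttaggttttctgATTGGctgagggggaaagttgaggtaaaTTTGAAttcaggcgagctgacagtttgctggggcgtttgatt

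Ccnb2 held a CHR 4 to 9 bases after the start and another at -167 to -162, with CCAAT boxes at -87, -54 and -21 (first base, counted from 0 at the first transcribed base). Ccnb1 held CCAAT boxes at -99 and -67, and neither TTTGAA nor TTCGAA is in its window. No other letters were searched as a CHR. Cdc25b held TTCGAA 7 to 12 bases after the start and a reverse CCAAT box at -28. Mki67 held TTTGAA at -116 and -98 below 3 CCAAT boxes. Hmmr, which rose, held TTTGAA 8 to 13 bases after the start and 5 reverse CCAAT boxes, and the Mad2l1 window held neither element. That window ends before the start of the Ensembl gene model, so it describes the RefSeq start only. The Kif2c window, whose CHR is among those counted above, lies inside the Ensembl gene model and not at its 5′ end. These are matches of letters and not measured binding.

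**Figure D3:**
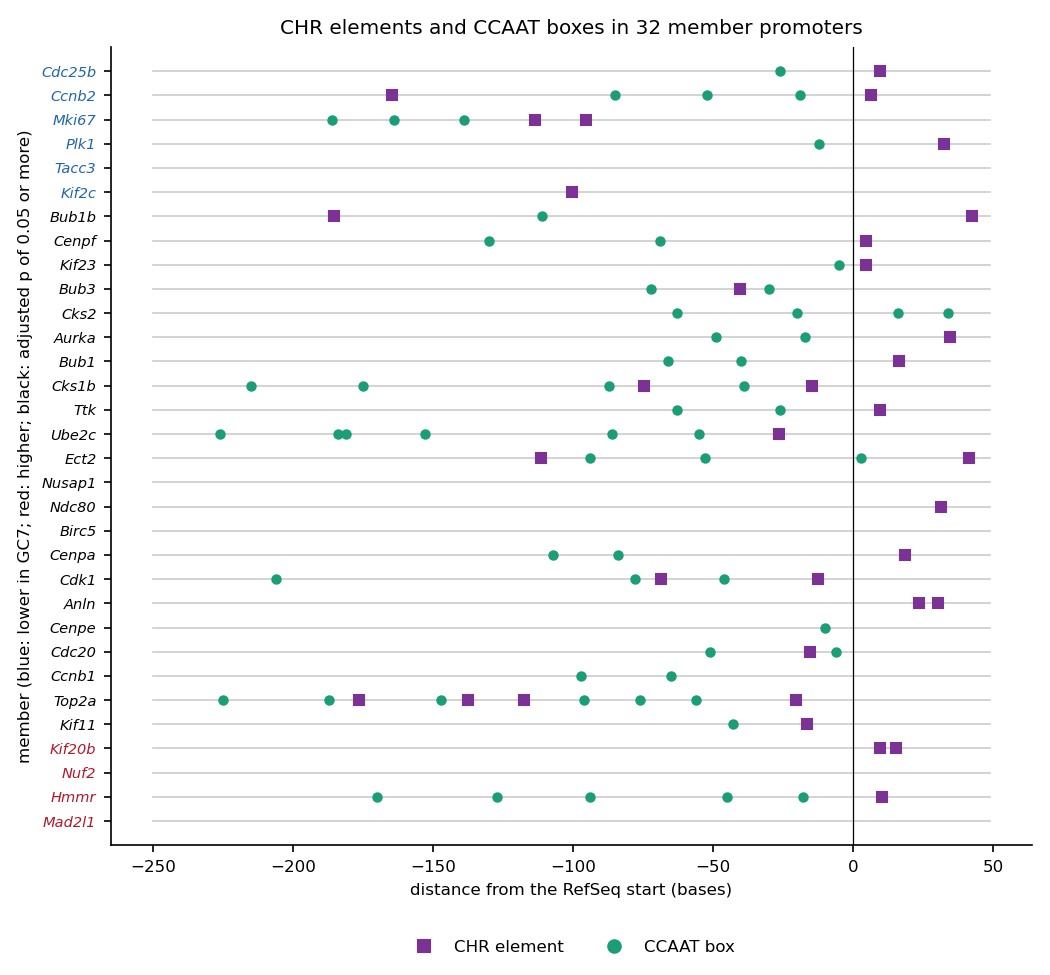
Position of each CHR (squares) and CCAAT box (circles) relative to the RefSeq start (x axis, bases) in 32 genes, ordered from the lowest to the highest log2 fold change, with the first window shown for genes that have 2. Squares and circles are spread over genes that fell, did not pass and rose, and Tacc3, Nusap1, Birc5, Nuf2 and Mad2l1 have neither.

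Among the 11 kinases, cyclins, phosphatases and regulators of mitotic entry, 3 fell and the other 8 did not pass the test, so that 27.3% were called against 59.5% of all genes tested. Their median change was -0.09, and their summed level was 1610 ± 56.9 CPM in Mock and 1439 ± 54.3 CPM in GC7 (SD, n = 4). Cdc25b, one of the phosphatases that activate CDK1, lies at chr2:131186949-131198497. It stood at 178, 199.7, 185 and 182 CPM in the Mock libraries and at 117, 119, 122 and 132 CPM in the GC7 libraries. Every GC7 library was thus well below the lowest Mock library. Cdc25b shares 92 exon bases with Spef1 on the opposite strand. The change was -0.60 on the log2 scale (SE 0.0628, edgeR adjusted p = 5.66e-06). The level thus decreased by 34.2%, with a 95% interval of the change from -40.1% to -27.6%. Its relative Cdc25c was much less abundant, at 23.9 to 30.3 CPM in Mock and 27.2 to 40.2 CPM in GC7. The groups overlapped, with the highest values in GC7 3 and GC7 4, and the change of 0.26 did not pass (SE 0.123, adjusted p = 0.0836). It passed without GC7 2 (adjusted p = 0.0242).

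Ccnb2 and Ccnb1 encode the B-type cyclins that activate CDK1. Ccnb2 (chr9:70407692-70421547) was at 180.1, 213, 195 and 191 CPM in Mock and at 130.1, 132, 142 and 141 CPM in GC7. The groups did not overlap, and Ccnb2 fell by 0.52 on the log2 scale (SE 0.0654, edgeR adjusted p = 2.96e-05). Ccnb1 (chr13:100778650-100786570) was at 174, 169.9, 179 and 176 CPM in Mock and at 182, 178, 202 and 183 CPM in GC7. Its values overlapped, and the change of 0.09 did not pass (adjusted p = 0.215), with a 95% interval of the change from -2.73% to 16.3%. Near-identical pseudogenes of Ccnb1 were themselves at 64 counts or fewer per library. Per kilobase of exon, Ccnb2 was the more abundant, at 127 CPM per kb in Mock and 88.9 in GC7, against 41.5 and 44.1 for Ccnb1. Exon length here joins all annotated exons of a gene, so levels per length depend on the annotation.

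Ccna2, the cyclin A of dividing cells, lay at 232 to 251 CPM in Mock and 206 to 229 CPM in GC7. These ranges do not overlap, yet the change of -0.14 did not pass (SE 0.0584, adjusted p = 0.0633), and it passed without Mock 2 or without GC7 3 (adjusted p = 0.0208 and 0.0320) and with DESeq2 (0.0257). With library totals the change was -0.04 (adjusted p = 0.571) and with upper-quartile factors -0.09 (0.203). Ccna2 shares 510 exon bases with Exosc9 on the opposite strand. Cdk1, the kinase that these cyclins activate, was at 143, 158, 152 and 143 CPM in Mock and 152, 145, 163 and 151 CPM in GC7. The groups overlapped closely, with a change of 0.04 and a 95% interval from -6.54% to 12.4%. The small CDK1-binding subunits Cks1b and Cks2 changed by -0.08 and -0.09, and neither passed. By the length of all annotated exons, Cks2 had the highest level per length of all 40 genes in Mock, at 215 CPM per kb, and Cdc25c the lowest, at 5.65. Near-identical pseudogenes of Cks2 were themselves at 31 counts or fewer per library. Cdc25c shares 623 exon bases with Gm3550 on the opposite strand.

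Plk1, the polo-like kinase that acts from mitotic entry to cytokinesis, also fell. It was at 143, 157, 146 and 144 CPM in Mock and at 119, 113, 100.4 and 118 CPM in GC7. GC7 3 held the lowest value of all, and no GC7 library reached the Mock range. The change was -0.39 (SE 0.0671, edgeR adjusted p = 3.36e-04), and the level decreased by 23.7%. Plk1 shares 156 exon bases with Gm44985 on the opposite strand. Aurka, the aurora kinase of the centrosome, changed by -0.09 with overlapping groups (118 to 129.8 CPM in Mock, 111 to 121 CPM in GC7, adjusted p = 0.198). Foxm1, the transcription factor of many of these genes, was at 119 to 135 CPM in Mock and 130.1 to 145 CPM in GC7, and its change of 0.10 did not pass (adjusted p = 0.206).

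Of the 7 chromosomal passenger and spindle checkpoint genes, 1 fell and 1 rose (28.6% called, against 59.5% of all genes tested). Aurkb, the kinase of the chromosomal passenger complex (chr11:69045647-69051664), was at 189, 199.7, 186 and 192 CPM in Mock and 145, 144, 156 and 158 CPM in GC7. All GC7 libraries lay below the Mock range, and Aurkb fell by 0.35 (SE 0.0578, edgeR adjusted p = 2.57e-04). Birc5, or survivin, which sits in the same complex, changed by 0.03, with 168 to 215 CPM in Mock and 172 to 201 CPM in GC7 (adjusted p = 0.795). Mad2l1, which encodes the checkpoint protein MAD2 that holds back CDC20, showed the largest rise of the 40 genes. Its levels were 119.9, 119, 115 and 111 CPM in Mock and 147, 149, 181 and 152 CPM in GC7. GC7 3 stood above the other GC7 libraries, which were themselves all above Mock. The change was 0.43 (SE 0.0731, adjusted p = 2.88e-04), an increase of 35.0% with a 95% interval of 20.9 to 50.7%.

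The remaining 4 checkpoint genes did not pass the test, and all 4 estimates were below 0, except that Bub1 and Ttk turned just above 0 with library totals. The checkpoint kinases Bub1 and Ttk changed by -0.08 and -0.05, and Bub3, which brings BUB proteins to kinetochores, by -0.10. Bub1b, which encodes BUBR1, was at 221 to 239.5 CPM in Mock and 207 to 219 CPM in GC7. Its groups did not overlap, and the change of -0.13 had an adjusted p of 0.0630, which became 0.0102 without Mock 2, 0.0441 without GC7 3 and 0.0174 with DESeq2. The change shrank to -0.03 with library totals (adjusted p = 0.639) and to -0.08 with upper-quartile factors (0.203). The activator of the anaphase-promoting complex, Cdc20, and its ubiquitin-conjugating enzyme Ube2c changed by 0.08 and -0.03. Both overlapped between the groups, at 184 to 207 and 192 to 216 CPM for Cdc20 and at 242 to 295 and 243 to 277 CPM for Ube2c. Cdc20 shares 53 exon bases with Elovl1 and Ube2c 592 with Tnnc2, both on the opposite strand.

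Of the 5 centromere and kinetochore genes, 1 rose and the other 4 did not pass, while 30.4% of all genes tested rose. Nuf2, a subunit of the NDC80 complex that grips microtubules, was at 72.1, 71.9, 78.9 and 73.6 CPM in Mock and 85.4, 82.9, 96.0 and 90.6 CPM in GC7. Its lowest GC7 value exceeded its highest Mock value, and the change was 0.26 (SE 0.0647, edgeR adjusted p = 0.00431). Ndc80, its partner in the same complex, was at 78.5 to 84.3 CPM in Mock and 75.7 to 96.7 CPM in GC7, a change of 0.01 (adjusted p = 0.894). Ndc80 has near-identical copies among the genes tested, 2700099C18Rik and Gm1976, so its counts are uncertain to that extent. Cenpa, the histone H3 variant of centromeres, changed by 0.03, Cenpe, a kinetochore motor, by 0.04, and Cenpf, a large kinetochore protein, by -0.10. Cenpf passed without Mock 2 (change -0.18, adjusted p = 0.0209), the Mock library in which it was lowest (123 CPM against 149.6 to 162 CPM in the others). Parts of Cenpf match the tested genes Zmynd8, Ppm1k and Zfp60.

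The spindle motors and microtubule factors had 4 of 7 genes lower and 1 higher, against 59.5% called in either direction among all genes tested. Tacc3, which crosslinks and stabilises spindle microtubules, was at 244, 285, 253 and 254 CPM in Mock and 205, 199.8, 217 and 229 CPM in GC7. The groups were apart by a small margin, and Tacc3 fell by 0.28 (SE 0.0688, edgeR adjusted p = 0.00363). It shares 289 exon bases with Tmem129 on the opposite strand. Kif2c, a kinesin that takes microtubules apart at centromeres, was at 70.3, 86.5, 73.5 and 74.3 CPM in Mock and 60.4, 62.6, 65.1 and 67.9 CPM in GC7, a change of -0.25 (adjusted p = 0.0109, and 0.0599 with library totals). Mock 2 stood above the other Mock libraries for both genes.

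Tpx2, which activates aurora A and nucleates spindle microtubules, was at 277, 267, 275 and 265 CPM in Mock and 232, 232, 245 and 238 CPM in GC7. The groups were apart, and it fell by 0.19 (SE 0.0537, edgeR adjusted p = 0.00771). With library totals the change was -0.10 and did not pass (adjusted p = 0.126), nor did it pass without a filter (0.0520). Dlgap5, or HURP, which stabilises kinetochore fibres, was at 167, 168, 181 and 171 CPM in Mock and 145, 145, 158 and 158 CPM in GC7. The groups were apart, with a change of -0.18 (adjusted p = 0.0187). This call is not firm, since the adjusted p was 0.0540 without Mock 3, 0.0694 without GC7 1, 0.0692 without GC7 2 and 0.227 with library totals.

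Hmmr, a spindle assembly factor also known as a hyaluronan receptor, moved the other way. It was at 146, 121, 151 and 137 CPM in Mock and 166, 168, 198 and 171 CPM in GC7. Mock 2 was the lowest Mock library and GC7 3 the highest GC7 library, and the groups did not overlap. The change was 0.34 (SE 0.0817, edgeR adjusted p = 0.00319). Parts of Hmmr match other genes tested at 90% identity or more over at least 200 bases, which leaves some uncertainty in its counts. Kif11, the motor that pushes spindle poles apart, was at 241 to 296 CPM in Mock and 294 to 347 CPM in GC7. The groups overlapped slightly, Mock 2 being far below the other Mock libraries, and the change of 0.17 did not pass (adjusted p = 0.0843). It passed with library totals (0.0215) and upper-quartile factors (0.0326), while without Mock 2 the change was 0.10 (0.166). Nusap1, a microtubule-bundling protein that shares 172 exon bases with Oip5 on the opposite strand, changed by 0.01.

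Among the 5 cytokinesis genes 2 rose, Kif20a and Kif20b, which with Kif23 are the kinesins of the kinesin-6 family. Of all genes tested, 30.4% rose and 59.5% were called in either direction. Kif20a, which carries the passenger complex to the central spindle, was at 86.1, 80.6, 91.3 and 86.1 CPM in Mock and 103, 101, 105 and 100.2 CPM in GC7. The GC7 values were close together and all above Mock, and the change was 0.25 (SE 0.0576, edgeR adjusted p = 0.00282). Kif20a shares 1271 exon bases with Cdc23 on the opposite strand, which rose by 0.45 (adjusted p = 8.60e-05), and without a stated strand setting the reads of the overlap cannot be told apart. Kif20b was at 104, 77.1, 105 and 98.5 CPM in Mock and 116, 111, 120.3 and 109 CPM in GC7, a change of 0.25 (SE 0.0905, adjusted p = 0.0322). Mock 2 lay far below the other Mock libraries. The call of Kif20b was lost without Mock 4, GC7 1 or GC7 3, with adjusted p of 0.0604, 0.0645 and 0.0703. Its change ran from 0.15 to 0.28 as each library was left out in turn. Kif23, the kinesin of centralspindlin, had an estimate of -0.10 that did not pass. Anln, which encodes the contractile ring protein anillin, changed by 0.04, and Ect2, the exchange factor that switches on RhoA at the cleavage site, by 0.00, and the groups overlapped for all of these.

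The mitotic chromosome genes include the most abundant of the 40 by CPM. Mki67 encodes Ki-67, which coats mitotic chromosomes and is widely used to mark dividing cells. It was at 1027, 782, 969 and 960.1 CPM in Mock and 696, 702, 692 and 631 CPM in GC7. Mock 2 was the lowest Mock library and still above every GC7 library, and Mki67 fell by 0.46 (SE 0.0855, edgeR adjusted p = 6.00e-04). Top2a, the topoisomerase that untangles sister chromatids, was at 1044, 924, 1070.1 and 1024 CPM in Mock and 1056, 1094, 1138 and 1038 CPM in GC7. The groups overlapped, with a change of 0.09 (adjusted p = 0.274) and a 95% interval from -3.98% to 18.1%. Parts of Top2a match the tested genes Dynlt1a, Dynlt1c and Dynlt1f. Smc4, a condensin subunit, was at 379.6 to 421 CPM in Mock and 352 to 398 CPM in GC7, a change of -0.14 (adjusted p = 0.0821). It passed without Mock 2 or without GC7 3 (adjusted p = 0.0179 and 0.0236) and with DESeq2 (0.0394). Across the 17 alternatives the change ran from -0.17 to -0.05 and the adjusted p from 0.0179 to 0.578.

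**Figure D4:**
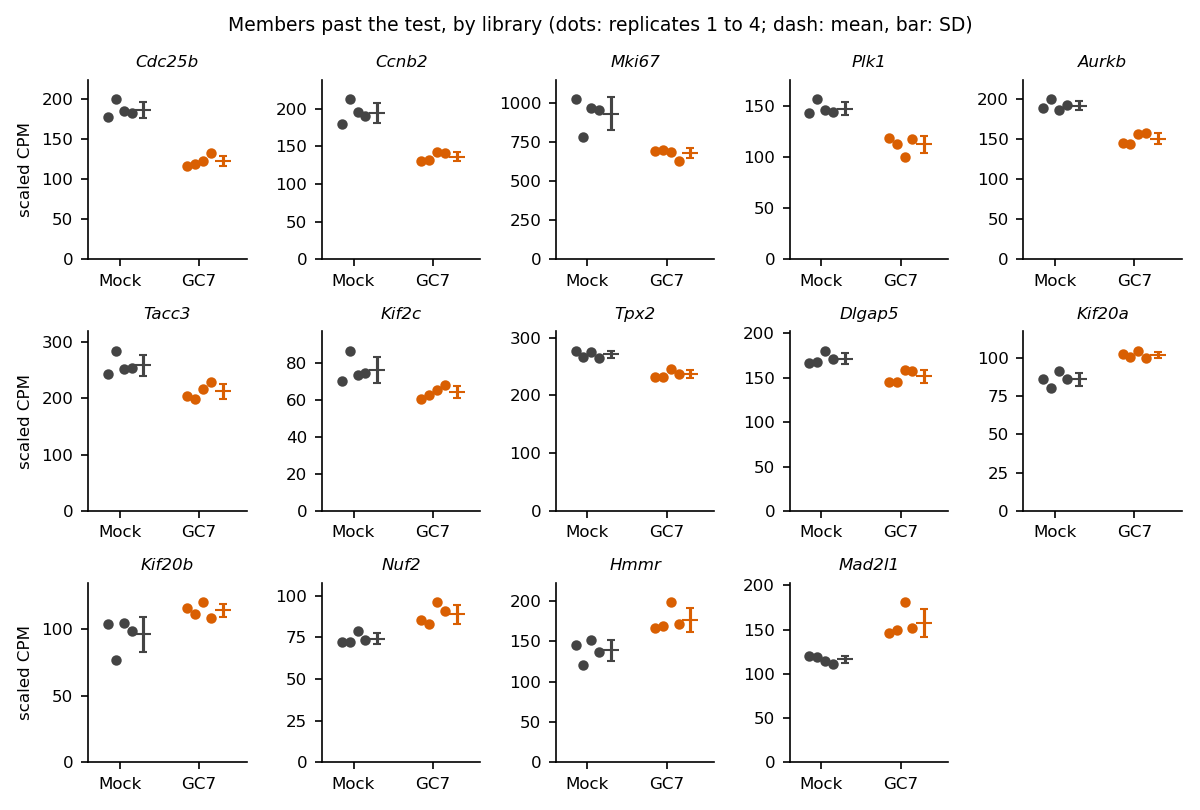
Scaled CPM (y axis, from 0) in the 4 Mock and 4 GC7 libraries for the 14 genes past an adjusted p of 0.05, as dots with the mean (dash) and SD (bar). The groups do not overlap in any of the 14 panels, for example 178 to 199.7 CPM against 117 to 132 CPM for Cdc25b.

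The sum over the 40 genes was 8107, 7826, 8308 and 8046 CPM in Mock and 7409.9, 7513, 8087 and 7598 CPM in GC7. These sums overlap, since GC7 3 reached the level of the Mock libraries, and the log2 ratio of the means was -0.08. Without Mki67 and Top2a, which make up a large part of the sum, it was -0.06. GC7 3 was the highest GC7 library for 27 of the 40 genes and GC7 1 the lowest for 19. Mock 2 was the lowest Mock library for 19 genes and the highest for 17. The deviation of a library from its group followed gene length in several libraries. Across the 40 genes, r between deviation and log2 exon length was -0.63 in Mock 2, 0.62 in Mock 1, 0.58 in Mock 3 and -0.46 in GC7 4, and across all 11189 genes tested it was -0.52, 0.23, 0.38 and -0.23. In GC7 3 the sign differed, with r of 0.35 across the 40 genes and -0.08 across all genes tested. Between the log2 fold change and log2 exon length, r was 0.30 across the 40 genes and 0.08 across all genes tested. These correlations are across genes, with deviations of a group summing to about 0, and are given as a description, since genes are not independent. Without Mock 2, 13 of the 40 genes were lower, beside 3359 of the 11013 genes then tested, and without GC7 3, 12 were lower, beside 3149 of 11015.

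Partner genes were compared within each library by the log2 ratio of their CPM plus 0.5, which depends only slightly on the scaling of the library. The 10 pairs were chosen by function, with earlier results of these data known. Of the 10 pairs, 5 had ratios that did not overlap between the groups and reached the smallest p that a two-sided exact permutation test of 4 against 4 libraries can give, 0.0286. Adjusted over the 10 pairs this is 0.0571, so 0 pairs passed an adjusted p of 0.05 while these 5 passed unadjusted. The log2 ratio of Ccnb1 to Ccnb2 was -0.05, -0.32, -0.12 and -0.11 in Mock and 0.48, 0.43, 0.51 and 0.38 in GC7. The CPM of Ccnb1 thus went from just below to above those of Ccnb2, a difference of 0.60 (SE 0.0663). For Cdc25b to Cdc25c the ratio went from 2.73 ± 0.104 to 1.88 ± 0.221 (SD, n = 4), a difference of -0.85 (SE 0.122).

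The other pairs whose ratios stood apart were closer. Aurka to Aurkb differed by 0.26 (SE 0.0315), Ndc80 to Nuf2 by -0.25 (SE 0.0573) and Cenpe to Cenpf by 0.14 (SE 0.0237). For Cdk1 to Ccna2 and for Cdc20 to Ube2c the differences were 0.17 (SE 0.0547) and 0.10 (SE 0.0338), each with an exact permutation p of 0.0571 (0.0816 adjusted). Ratios within Bub1 and Bub1b, Cks1b and Cks2, and Kif20a and Kif20b differed by 0.04 (SE 0.0487), 0.01 (SE 0.0363) and -0.01 (SE 0.0754), with overlapping groups.

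The genes of other lists around the mitotic programme were counted in the same fit. In a wider list of 98 mitosis and G2/M genes, 19 fell and 34 rose, so that 54.1% passed, against 35.0% of the 40 genes and 59.5% of all genes tested. The median was 0.09. Psrc1, which encodes a spindle-associated protein, was at 46.6, 50.1, 57.3 and 50.2 CPM in Mock and 243, 228, 361 and 276 CPM in GC7, a rise of 2.44 (SE 0.132, edgeR adjusted p = 2.11e-08). Gtse1, a microtubule-binding protein that restrains p53, went from 91.0 ± 3.78 to 213 ± 13.9 CPM (SD, n = 4), a rise of 1.23 (adjusted p = 1.63e-08). Psrc1 and Gtse1 were the only genes of that list past the stricter threshold. Spc25, another NDC80 complex subunit, rose by 0.88, and Mis12, a kinetochore subunit, by 0.66. Mad2l2, a relative of MAD2 that inhibits the anaphase-promoting complex, fell by 0.71. Wee1, the kinase that opposes CDC25, rose from 30.7 ± 1.64 to 39.1 ± 3.11 CPM, a change of 0.35 (adjusted p = 0.00155). Espl1, which encodes separase, and Pttg1, which encodes its inhibitor securin, had estimates of 0.09 each and did not pass.

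Among 17 other genes of the anaphase-promoting complex, 6 fell and 1 rose (41.2% in either direction, against 59.5% of all genes tested), with a median of -0.10. The count that rose was 4 without Mock 2, 2 without GC7 3, 3 with upper-quartile factors and 5 with library totals, where 5 fell. Fzr1, which encodes the activator CDH1, was at 171, 202, 178 and 179 CPM in Mock and 117, 111, 111 and 116 CPM in GC7. It fell by 0.68 (SE 0.0640, edgeR adjusted p = 2.32e-06), whereas the activator Cdc20 did not pass. Of the subunits, Anapc11 fell by 0.53, Anapc2 by 0.48 and Cdc16 by 0.37, and Cdc23 rose by 0.45. The inhibitor gene Fbxo5 was at 66.6 to 74.7 CPM in Mock and 69.7 to 75.6 CPM in GC7, with a change of 0.06 (adjusted p = 0.446).

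A list of 22 regulators held MuvB, B-Myb, DREAM and E2F genes together with CDK inhibitor genes. Of these 22, 5 fell and 12 rose, so that 77.3% passed against 59.5% of all genes tested, and the median was 0.29. Cdkn1a, which encodes the CDK inhibitor p21, was at 263, 259.6, 284 and 256 CPM in Mock and 546, 523, 581 and 561 CPM in GC7. The groups were far apart, a rise of 1.06 (SE 0.0626, edgeR adjusted p = 4.36e-08). Tfdp1, the partner of E2F proteins, rose by 0.78, the MuvB subunit Lin52 by 0.67, the repressor E2f6 by 0.64 and the DREAM pocket protein Rbl2 by 0.51. The MuvB subunit Lin9 rose by 0.29, and Lin54, the subunit that contacts CHR letters, was at 33.3 ± 4.67 CPM in Mock and 39.8 ± 3.61 CPM in GC7 (change 0.26, adjusted p = 0.0510). Mybl2, which encodes B-Myb, fell from 81.4 ± 3.73 to 72.0 ± 5.09 CPM, a change of -0.18 (adjusted p = 0.0377).

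In 66 S phase genes, 16 fell and 19 rose (53.0% in either direction, against 59.5% of all genes tested), with a median of 0.04. Gins3, a subunit of the replicative helicase, rose by 0.63, Dtl, which targets proteins for destruction at replication forks, by 0.59 and the exonuclease gene Exo1 by 0.55. Rnaseh2b, a subunit of ribonuclease H2, fell by 0.53. The median size of change was 0.206 in this list, 0.235 in the wider mitosis list, 0.158 in the anaphase-promoting complex list and 0.410 in the MuvB and E2F list, against 0.098 in the 40 genes and 0.293 in all genes tested. These lists were chosen with earlier results of these data known, and their counts are given as a description.

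**Figure D5:**
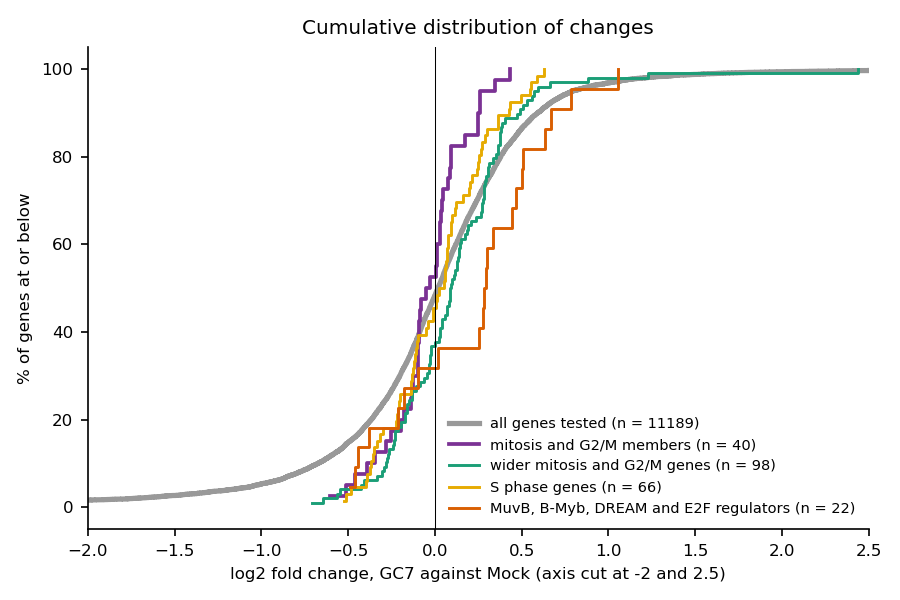
Share of genes (y axis, %) at or below each log2 fold change (x axis, limited to -2 to 2.5) for all 11189 genes tested and for 4 gene lists. The curve of the 40 mitosis and G2/M genes rises steeply within -0.60 to 0.43 around a median of -0.04, while that of the 22 MuvB, B-Myb, DREAM and E2F regulators (CDK inhibitors included) lies to the right, with a median of 0.29.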

How the data were processed

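mRNA was sequenced from 4 Mock and 4 GC7 cultures, which the study calls biological replicates. The authors deposited raw counts per Ensembl gene, 1 table per library, without normalisation. Per the labels and methods, reads were trimmed with cutadapt, aligned to GRCm38 (mm10) with STAR and counted with featureCounts. The strand setting and the handling of reads with several matches are not given in the sources used here, so overlapping genes and near-identical copies (BLAST version 2.17.0, at least 200 bases at 90% identity) leave the counts of the genes concerned uncertain.

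Genes with over 3 CPM in at least 4 libraries were kept. Changes came from edgeR version 4.0.16 in R version 4.3.3 (TMM factors, group as the only term, quasi-likelihood F test, Benjamini-Hochberg over 11189 genes). Ratios within pairs used log2 of CPM plus 0.5 and two-sided exact permutation tests. The fit was tested on simulated data for this comparison: with 200 of 11189 genes changed, it called 100 of 100 at a log2 change of 1, 90 of 100 at 0.5, and 8 unchanged genes. Smaller changes were not simulated. In the libraries themselves 59.5% of the genes tested passed. How the fit and its scaling behave with that many genes changed was not tested. Alternatives were RLE, upper-quartile and total-count scaling, DESeq2 version 1.42.0, limma-voom (limma version 3.58.1), other filters, a replicate block and each library left out. Python version 3.11.15 with scipy version 1.17.1 and matplotlib version 3.10.9 did the rest.

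Named are all 40 members and, of each other list, the 5 largest changes past an adjusted p of 0.05, with Mybl2, Cdkn1a, Lin9, Lin54, Pttg1, Espl1, Wee1 and Fbxo5, except that 1 gene of the S phase list is not reported here. Members and lists were chosen with earlier results of these data known. Promoter windows are RefSeq's, and protein sequences were not used here. Depth was 17528776 to 25284730 counts per library, with at least 466 counts for each member in each library. Reads carry no molecular identifiers.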

Additional observations from a re-analysis of the deposited data

Results flagged for a closer look

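In 80 groups of 4 libraries (40 genes, Mock and GC7), 1 library stood apart in 8 (the gap to the nearest library over the whole range was above Dixon's 95% critical value for 4 values). Chance gives about 1 in 20, or 4 of 80. GC7 3 stood above the other GC7 libraries for Cenpe (ratio 0.947), Smc4 (0.851), Mad2l1 (0.847) and Hmmr (0.845). Mock 2 stood below the other Mock libraries for Kif11 (0.906) and Ect2 (0.870). Mock 3 stood above its group for Nusap1 (0.848), and GC7 4 below its group for Mki67 (0.850). Mad2l1, Hmmr and Mki67 kept their direction and passed the test in all 17 alternatives, those without these libraries included. The reasons for these library values were not tested.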

How the results depend on the processing

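Of the 14 calls, 10 (Ccnb2, Cdc25b, Plk1, Aurkb, Mki67, Tacc3, Mad2l1, Nuf2, Hmmr and Kif20a) held with the same sign in all 17 alternatives. Scaling by library totals gave 11 genes higher and 6 lower and a median of 0.056, and it moved the median of all genes from 0.02 to 0.11. The median of the 40 genes relative to that of all genes stayed at -0.06 in both. Under this scaling Kif2c (adjusted p = 0.0599), Tpx2 (0.126) and Dlgap5 (0.227) lost their edgeR calls, Dlgap5 also with upper-quartile factors (0.0695) and both Tpx2 (0.0520) and Dlgap5 (0.0761) without a filter. The genes that became higher with library totals were Ccnb1 (adjusted p = 0.0215), Cdc25c (0.0216), Foxm1 (0.0277), Cdc20 (0.0205), Kif11 (0.0215, and 0.0326 with upper-quartile factors) and Top2a (0.0416). Cdc25c also passed without a filter (0.0175). Leaving out each library in turn gave 8 to 13 genes lower, 4 to 6 higher and a median of -0.079 to -0.011. The count of anaphase-promoting complex genes that rose was 5 with library totals, 3 with upper-quartile factors, 2 with DESeq2 and 1 to 4 without single libraries (4 without Mock 2, 2 without GC7 3). The causes were not tested.

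Signs turned for genes near 0, none of them called in either setting. With library totals these were Cks1b (0.015), Cks2 (0.0021), Aurka (0.0046), Bub1 (0.0089), Ttk (0.045) and Ube2c (0.067, and 0.013 with upper-quartile factors). Ect2 turned to -0.0016 with RLE factors, -0.0017 with DESeq2, -0.00087 with CPM above 1 and -0.0019 with filterByExpr. Without single libraries the range was -0.026 to 0.11 for Birc5, -0.077 to 0.026 for Ube2c, -0.035 to 0.078 for Cenpa, -0.027 to 0.069 for Cenpe, -0.064 to 0.056 for Ndc80, -0.032 to 0.046 for Nusap1, -0.022 to 0.073 for Anln and -0.096 to 0.048 for Ect2. The log2 ratio of Cks1b to Cks2 ranged from -0.013 to 0.034 and that of Kif20a to Kif20b from -0.049 to 0.062.

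The deviations of same-numbered Mock and GC7 libraries had correlations of 0.272, -0.116, 0.203 and -0.183. With 4 libraries a group, such values cannot settle whether equal numbers mark paired cultures, and the labels give only the numbers. No pairing was assumed in the main fit. A replicate block in the edgeR fit gave 14 passing genes, the same 14 as without it. limma-voom called 14, the same 14, and DESeq2 called 17, which hold these 14 with Ccna2, Bub1b and Smc4, all lower. In the simulation, with 200 of 11189 genes changed, 90 of 100 changes of 0.5 were called. Smaller changes, such as most of those here, were not simulated. Of all genes tested here 59.5% passed, and the fit was not tested with that many genes changed.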
